A study of Mus musculus with 6 samples.

Results

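The genes described here encode the prostaglandin E2 receptor EP3 and the enzymes that make prostaglandin E2, convert related prostaglandins or break them down. They were taken by gene symbol from a deposited table of 7373 rows of mouse kidney RNA. Of the 9 genes named, 8 are listed there (Ptger3, Ptgs1, Ptges2, Ptges3, Ptgds, Cbr1, Ptgr1 and Ptgr2). Hpgd, which encodes the dehydrogenase that starts prostaglandin breakdown, was not analysed here. The genes were chosen by their place in the pathway with the log2 fold changes and p-values of transgenic against control kidneys already known, and Ptger3 was selected on those values to lead. Their differences between groups are therefore a description and support nothing on their own.

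Prostaglandin E2 is a lipid signal made from arachidonic acid. Phospholipases free arachidonic acid from membranes, cyclooxygenases turn it into prostaglandin H2, and prostaglandin E synthases turn that into prostaglandin E2, which acts on receptors of the EP family and is inactivated by oxidation followed by reduction. EP3 couples to inhibitory G proteins that lower cAMP. In the kidney it is known from the thick ascending limb and the collecting duct, where prostaglandin E2 opposes vasopressin and restrains the reabsorption of salt and water.

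The kidneys came from male adults of the inbred mouse strain FVB/N, in 2 groups of 3 samples. The transgenic mice overexpressed CryAB, a small heat shock protein, carrying the R120G missense mutation, and were sampled before heart failure set in. Their transgene is under the α-myosin heavy chain promoter, which is specific to heart muscle cells, so the kidney is not the tissue it targets. The control mice were matched to them for age and sex, and no other allele is named for either group. The table's columns for all 6 samples carry the mark Pre_IRI, which it does not spell out (in kidney work IRI usually stands for ischemia-reperfusion injury), and no treatment is named. Kidneys were taken whole, cut and frozen, with no dissection into cortex and medulla described, and in such bulk RNA fewer cells of a type cannot be told apart from less RNA per cell. Whether each sample was a separate animal is not stated, and p-values then measure sample spread, which may be technical.

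The libraries held between 23.5 and 47.6 M estimated counts over the listed genes. Control 3, the deepest, stood apart: there the table gives 0 for every one of its 178 X and Y genes, and for no gene elsewhere. Those genes were left out of the fit, and none of the prostaglandin genes is among them. For the genes refitted without control 3, the log2 fold change without it is given where it moved by over 1.5 times. Cryab, the gene of the overexpressed protein, stood at 186, 178 and 194 CPM (estimated counts scaled to a common library size) in transgenic kidneys 1, 2 and 3, against 210, 223 and 292 CPM in control kidneys 1, 2 and 3. It averaged 186 ± 7.88 CPM in transgenic kidneys and 242 ± 44.2 CPM in control kidneys (SD, n = 3 each), and its difference did not pass the test over all genes (log2 fold change -0.38 ± 0.13, SE, and -0.22 without control 3).

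Ptger3 (gene ID 19218) lies on chromosome 3 from 157566821 to 157644758 in the RefSeq gene table of GRCm38.p6, and the 250 bases that RefSeq's promoter table gives before its start are shown because it is the gene in which the groups stood apart. The sequence is from GRCm38.p6, plus strand, chr3:157566626-157566875, with the letters GGGCGG of the GC box, on either strand, in capitals. The gene table's start lies inside this window, since the promoter table counts from a later transcript start.
Ptger3 upstream: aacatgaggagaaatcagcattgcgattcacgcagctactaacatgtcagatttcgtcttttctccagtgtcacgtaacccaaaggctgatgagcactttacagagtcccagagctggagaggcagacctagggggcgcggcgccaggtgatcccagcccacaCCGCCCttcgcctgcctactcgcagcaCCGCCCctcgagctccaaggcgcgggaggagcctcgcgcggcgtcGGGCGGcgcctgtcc
The window is 62.0% G and C and holds 21 CG pairs, against medians of 52.4% and 6 over 32851 windows of the same length. The GC box letters occur 3 times in the Ptger3 window, without overlap, and occur at least once in 32.7% of the 32851 windows. They are also present in the windows of Ptges3, Ptgr1 and Hpgd, and so in 4 of the 9 genes named. The full cAMP response element (TGACGTCA) is in 1.55% of the 32851 windows, and its short form (TGACG, which the full form contains) in 17.8%. The TATA letters (TATAAA) are in 12.4%. Searched on both strands, none of these is in any window of the 9 genes. These matches are letters in a sequence and say nothing about which factors bind there.

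Mouse EP3 is known to exist in forms that differ in the tail inside the cell, the end that meets G proteins. The GENCODE M21 annotation of mm10 gives Ptger3 a pair of coding transcripts, Ptger3-201 with 362 codons and Ptger3-202 with 366. Their first 1010 coding bases read the same. Ptger3-202 includes an exon of 89 bases (chr3:157641721-157641809) that Ptger3-201 skips. The end of the coding sequence of each, plus strand, is shown because the deposited count is per gene and does not separate the forms. The last 24 letters that read the same are in lower case, and the letters after the point of divergence are in capitals. This marks where the letters part, and the exon border lies slightly before it.
Ptger3-201: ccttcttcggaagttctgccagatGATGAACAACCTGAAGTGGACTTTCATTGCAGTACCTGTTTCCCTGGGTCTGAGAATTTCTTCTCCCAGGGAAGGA
Ptger3-202: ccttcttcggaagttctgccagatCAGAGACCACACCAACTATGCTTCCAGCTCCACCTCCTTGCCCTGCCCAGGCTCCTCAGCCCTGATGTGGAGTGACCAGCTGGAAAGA
The letters differ from the point of divergence on, over 76 coding bases in Ptger3-201 and 88 in Ptger3-202. Values of Ptger3 below are for the gene, and how the forms divide it cannot be read from a count per gene.

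Ptger3 RNA was lower in every transgenic kidney than in every control kidney. It stood at 38.0, 41.9 and 42.2 CPM in transgenic kidneys 1, 2 and 3, against 50.7, 54.3 and 58.4 CPM in control kidneys 1, 2 and 3. The highest transgenic value lay below the lowest control value, with a gap larger than the range inside either group. The means were 40.7 ± 2.32 CPM in transgenic kidneys and 54.5 ± 3.86 CPM in control kidneys (SD, n = 3 each), a ratio of 0.747 and a log2 fold change of -0.42 ± 0.093 (SE). Of all 7194 genes in the fit, 1.20% had a larger absolute log2 fold change. The estimated counts behind these levels ran from 958 to 2719 per library. The spread of Ptger3 inside groups was modest, with a pooled SD of 0.093 on the log2 scale, which ranked at 23.8% of all genes from the least variable up.

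That difference did not pass the test over all genes. By edgeR's quasi-likelihood test, Ptger3 had an unadjusted p of 0.00169 and a Benjamini-Hochberg adjusted p of 0.997. Under DESeq2 its adjusted p was 0.215, the smallest over the 13 alternatives, in all of which its log2 fold change stayed between -0.47 and -0.37. For any gene alone, exact permutation of 3 against 3 samples gives a two-sided p of at least 0.1.

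**Figure D1:**
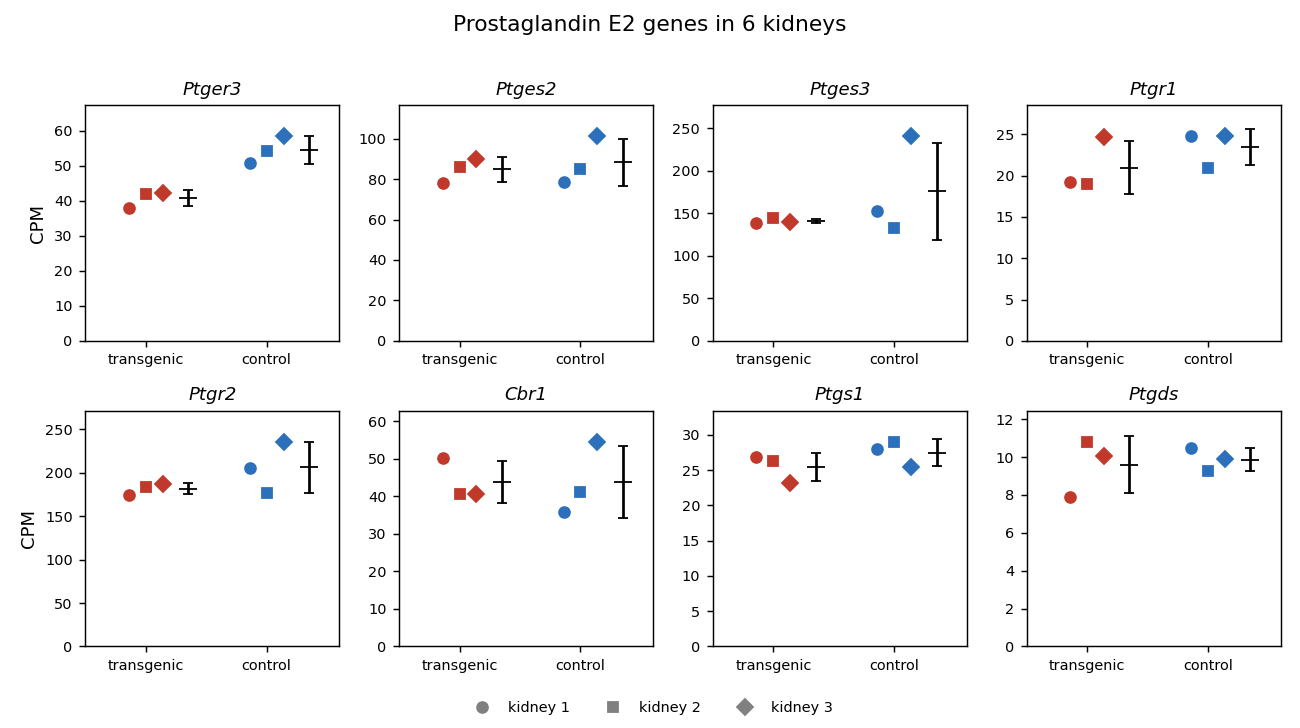
CPM of the 8 prostaglandin genes (vertical axes, each from 0) in 3 transgenic and 3 control kidneys; points are kidneys, and the black mark and bar give the mean and SD. The 3 transgenic Ptger3 values, 38.0 to 42.2 CPM, all lie under the 3 control values, 50.7 to 58.4 CPM, while the groups overlap in the other 7 genes.

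None of the 8 genes passed the test, in a fit where 0.0139% of genes did so; the gene that passed was Ren1, the renin gene. By DESeq2 and by limma none of the 8 passed either, and at an unadjusted p under 0.05 with edgeR 1 did, Ptger3, where 1.82% of all genes did and 1.08% did so with a lower level in transgenic kidneys. Without overlap between groups there was again 1 of 8, Ptger3, where 5.98% of all genes were so, 3.02% with the lower level in transgenic kidneys. All 8 fitted log2 fold changes were below 0, where 49.7% of all genes were, and their median was -0.14 against 0.0010 for all genes. These values were in view when the genes were picked, so nothing is read from the shares. The sign did not hold throughout in 3 of the 8 (Ptges2, Cbr1 and Ptgds), as shown with each.

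Among the enzymes of synthesis, Ptgs1 encodes cyclooxygenase 1, the constitutive form, which in the kidney is known from collecting duct, vessels and interstitium. Ptgs1 stood at 26.8, 26.3 and 23.1 CPM in transgenic kidneys 1, 2 and 3, against 28.0, 29.0 and 25.4 CPM in control kidneys 1, 2 and 3. The groups overlapped, since control 3 lay below transgenic kidneys 1 and 2, and the log2 fold change was -0.11 ± 0.11 (SE), with -0.049 without transgenic kidney 3 and -0.17 without control 3. Ptgs2, the gene of the inducible cyclooxygenase, was not analysed here.

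Ptges3 encodes the cytosolic prostaglandin E synthase, a protein also known as p23, a co-chaperone of Hsp90. Ptges3 stood at 139, 144 and 140 CPM in transgenic kidneys 1, 2 and 3, against 153, 133 and 241 CPM in control kidneys 1, 2 and 3. Only control 3 was high, and the remaining 5 kidneys lay within 133 to 153 CPM with the groups overlapping. The log2 fold change of Ptges3 was -0.32 ± 0.19 (SE) with all libraries and -0.022 without control 3. Its SD was 2.75 CPM in transgenic kidneys and 57.2 CPM in control kidneys (n = 3 each).

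Ptges2 encodes a membrane-associated prostaglandin E synthase. Ptges2 stood at 78.2, 86.1 and 90.1 CPM in transgenic kidneys 1, 2 and 3, against 78.6, 84.9 and 101 CPM in control kidneys 1, 2 and 3. The groups overlapped and the log2 fold change was -0.057 ± 0.12 (SE), and 0.053 without control 3. Ptges, the gene of the inducible prostaglandin E synthase, was not analysed here.

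Ptgds and Cbr1 lead to other prostaglandins. Ptgds encodes the lipocalin-type synthase of prostaglandin D2 and stood at 7.90, 10.8 and 10.1 CPM in transgenic kidneys 1, 2 and 3, against 10.5, 9.26 and 9.88 CPM in control kidneys 1, 2 and 3. Transgenic kidney 1 was the low one, and the log2 fold change of Ptgds, -0.042 ± 0.16 (SE), was 0.081 without it and 0.00043 without control 1. Cbr1 encodes carbonyl reductase 1, which can convert prostaglandin E2 to prostaglandin F2α besides reducing many other carbonyls. Cbr1 stood at 50.2, 40.6 and 40.7 CPM in transgenic kidneys 1, 2 and 3, against 35.9, 41.2 and 54.5 CPM in control kidneys 1, 2 and 3. Each group held a high kidney, transgenic 1 and control 3. The means of Cbr1 were nearly the same, 43.8 ± 5.53 CPM in transgenic kidneys and 43.9 ± 9.56 CPM in control kidneys (SD, n = 3 each), and its log2 fold change of -0.0034 ± 0.16 (SE) ran from -0.13 without control 1 to 0.18 without control 3.

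Ptgr1 and Ptgr2 encode the reductases that act on the oxidised prostaglandins left by the dehydrogenase. Ptgr2 acts on 15-keto prostaglandin E2, while Ptgr1 also oxidises leukotriene B4. Ptgr2 stood at 174, 183 and 187 CPM in transgenic kidneys 1, 2 and 3, against 206, 177 and 236 CPM in control kidneys 1, 2 and 3. Control 2 lay among the transgenic values and the other controls above them. The log2 fold change of Ptgr2 was -0.18 ± 0.11 (SE), and -0.075 without control 3. The annotation places 32.0% of its exon bases under Gm47484, a long noncoding RNA gene on the opposite strand, and since the sources used here do not say whether counting used strand, reads of the pair cannot be told apart.

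Ptgr1 stood at 19.2, 19.0 and 24.7 CPM in transgenic kidneys 1, 2 and 3, against 24.8, 21.0 and 24.8 CPM in control kidneys 1, 2 and 3. Transgenic kidney 3 was nearly as high as controls 1 and 3, and the log2 fold change was -0.16 ± 0.14 (SE). Without transgenic kidney 3 it was -0.30, and it stayed below 0 whichever library was left out.

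**Figure D2:**
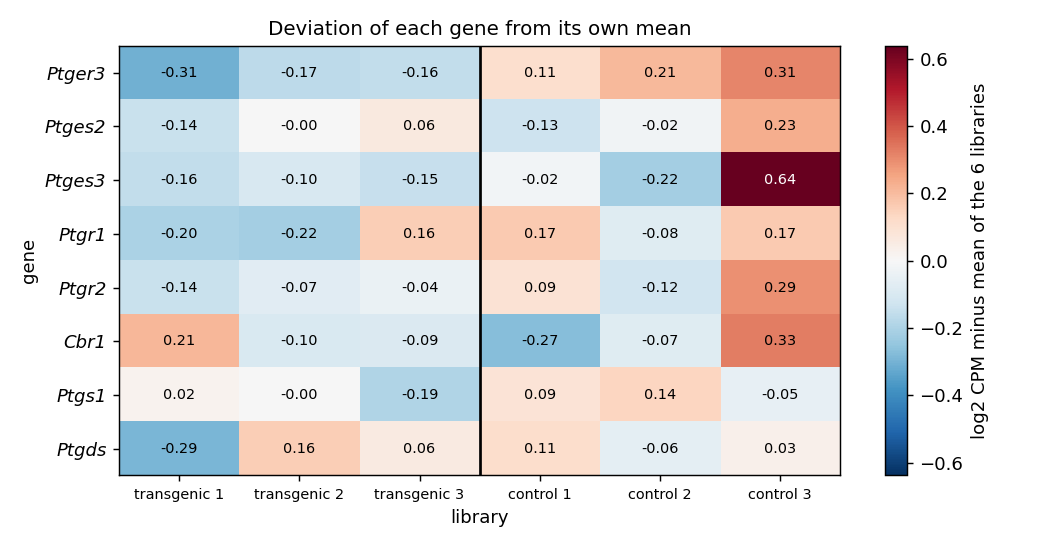
Deviation of log2 CPM from the gene's own mean over the 6 libraries, for each of the 8 genes (rows) in each kidney (columns, transgenic left of the line). Ptger3 is below its mean in all 3 transgenic kidneys and above it in all 3 controls, and control 3 holds the largest deviation, 0.64 for Ptges3.

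The kidney that stood out differed between genes. Control 3 held the highest value of Ptger3, Ptges2, Ptges3, Ptgr2 and Cbr1 and the lowest control value of Ptgs1. Inside groups, Ptges3 and Cbr1 were the most variable of the 8, with pooled SDs of 0.32 and 0.25 on the log2 scale, at 94.1% and 86.4% of all genes from the least variable up. Ptger3 and Ptgs1 were the least variable, with pooled SDs of 0.093 and 0.11. Over the 6 libraries Ptges3 and Ptgr2 followed each other closely, with a Pearson r of 0.94 between their log2 CPM, to which control 3 contributes the high end in both. Between Ptger3 and the other 7 genes r ran from 0.087 for Cbr1 to 0.69 for Ptgr2 (n = 6 libraries, in which the groups and the deep control 3 enter every pair of genes alike).

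Set against each other per kilobase of transcript (the longest coding transcript in GENCODE M21), Ptges3 was the most abundant, with a level of 79.2 CPM per kb on average over the 6 libraries, followed by Ptgr2 at 61.2 and Cbr1 at 35.4. The level of Ptges3 was above that of Ptgr2 in every library, although their ranges over libraries, 66.6 to 120 and 55.1 to 74.4 CPM per kb, overlapped. Ptges2 at 17.4 and Ptger3 at 15.1 CPM per kb came next. Their order depended on the kidney: Ptges2 was above Ptger3 in all 3 transgenic kidneys and in control 3, and below it in controls 1 and 2. Ptgds at 10.8, Ptgr1 at 9.69 and Ptgs1 at 9.22 CPM per kb were lowest, with overlapping ranges that do not set them in order. The level of Ptges2 rests on an annotated transcript of 4978 bases and would be higher with a shorter one. Likewise that of Ptger3 rests on Ptger3-201, of 3148 bases, and would be higher with Ptger3-202, of 2097 bases. The order of these genes therefore also depends on the transcripts taken.

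Ptger3 was then read against the thick ascending limb, the segment with which EP3 is most often associated. Of 13 marker genes of that segment 11 are listed, and all 11 were above 0 in every library. Their summed level was 3950, 4356 and 4208 CPM in transgenic kidneys 1, 2 and 3, against 4120, 4343 and 4688 CPM in control kidneys 1, 2 and 3. The sums overlapped between groups. Of these 11 genes 9 had a log2 fold change below 0 and 2 above, none passed the test and none had an unadjusted p under 0.05. Tmem207 alone was lower without overlap, where 3.02% of all genes were so. It stood at 29.9, 23.7 and 29.3 CPM in transgenic kidneys 1, 2 and 3, against 32.4, 31.2 and 35.3 CPM in control kidneys 1, 2 and 3. The median over the 11 was -0.096 against 0.0010 for all genes. The 3 most abundant were Umod, which encodes uromodulin (log2 fold change -0.096, and 0.011 without control 3), Egf, the epidermal growth factor gene (-0.069, and -0.024 without control 3 or -0.015 without transgenic kidney 1), and Slc12a1, the sodium-potassium-chloride cotransporter targeted by furosemide (-0.0064, with 0.039 without control 1 and -0.059 without control 3).

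Per 100 CPM of these markers, Ptger3 stood at 0.963, 0.962 and 1.002 CPM in transgenic kidneys 1, 2 and 3, against 1.23, 1.25 and 1.25 CPM in control kidneys 1, 2 and 3. The ratio varied less inside each group than Ptger3 itself did, and the groups did not overlap. Ptger3 was selected on its group difference and the ratio carries that difference, so nothing is read from the separation. The means of the ratio were 0.975 ± 0.0228 in transgenic kidneys and 1.24 ± 0.0100 in control kidneys (SD, n = 3 each). The log2 difference was -0.35, and between -0.37 and -0.34 when any library was left out. Library scaling cancels in a ratio, so leaving out a library only averages the remaining ratios anew. Umod made up between 49.1% and 55.4% of the sum.

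Taken against single markers, the ratio of Ptger3 to the marker was lower in each transgenic kidney than in any control for 8 of the 11, with Irx1, Cldn16 and Tmem207 the exceptions. The same held for 81.0% of all genes used in place of a marker, so the share among the markers is near the background.

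**Figure D3:**
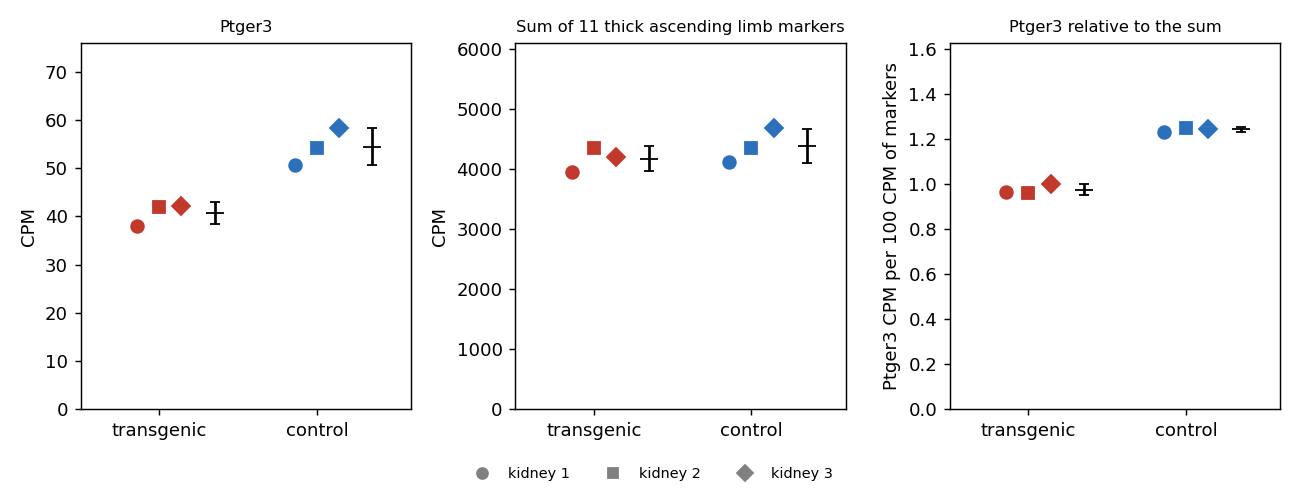
Left, Ptger3 in CPM; middle, the summed CPM of 11 thick ascending limb markers; right, Ptger3 CPM per 100 CPM of the markers; points are kidneys, the black mark and bar give the mean and SD, and all axes start at 0. The sums overlap between groups (3950 to 4356 CPM in transgenic kidneys and 4120 to 4688 CPM in controls), and the ratios do not (0.962 to 1.002 in transgenic kidneys and 1.23 to 1.25 in controls).

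Markers of the other cell types were counted in the same way, since Ptger3 is not limited to the thick ascending limb. The summed collecting duct principal cell markers (8 of 10 in the fit) ran from 901 to 1045 CPM in transgenic kidneys and from 1023 to 1109 CPM in controls, with Aqp2 the most abundant. The distal convoluted tubule (4 of 8 listed) ran from 791 to 965 CPM in transgenic kidneys and from 872 to 909 CPM in controls, and the proximal tubule (10 of 10) from 20419 to 22845 CPM in transgenic kidneys and from 20642 to 22867 CPM in controls. The inner medulla genes (5 of 6) ran from 413 to 533 CPM in transgenic kidneys and from 473 to 589 CPM in controls, and the interstitial and vessel wall genes (5 of 11) from 179 to 207 CPM in transgenic kidneys and from 168 to 183 CPM in controls. The endothelial genes (4 of 7) ran from 229 to 255 CPM in transgenic kidneys and from 243 to 322 CPM in controls, and the macrophage genes (6 of 8) from 249 to 310 CPM in transgenic kidneys and from 284 to 332 CPM in controls. In each of these 7 lists the sums overlapped between groups and no gene in the fit was at 0. No gene in them passed the test by edgeR, DESeq2 or limma. Genes with an unadjusted p under 0.05 with edgeR, where 1.82% of all genes had one, were Cryab (inner medulla), Plvap and Ehd3 (both endothelial). Cryab and Plvap were lower without overlap, where 3.02% of all genes were so. Ehd3 and Hsd11b2, a principal cell gene, were higher without overlap, where 2.96% of all genes were so. The part of any of these cell types in the Ptger3 difference was not tested.

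The median log2 fold changes were -0.061 for the principal cell list, 0.0048 for the distal convoluted tubule and 0.026 for the proximal tubule. They were -0.088 for the inner medulla, 0.083 for the interstitial and vessel wall genes, -0.12 for the endothelium and -0.22 for the macrophages. The principal cell median includes Aqp4 (log2 fold change -0.24), which stood highest in controls 1 and 3. Aqp4 met the authors' level filter, given below, in 2 of 6 samples. The endothelial median covers genes on both sides of 0, Emcn and Plvap (both -0.30) below and Pecam1 (0.054) and Ehd3 (0.32) above. Emcn stood at 86.6 CPM in control 3, against 44.7 and 41.8 CPM in controls 1 and 2. Its transgenic values were 44.4, 49.5 and 46.6 CPM. Of the 6 macrophage genes 5 were below 0 and 1 above. The macula densa list (Nos1, Ptgs2 and Avpr1a) has no listed gene.

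The rest of the pathway was read from 5 lists with 84 genes, of which 36 are listed and were tested. None passed the test in either direction with edgeR, DESeq2 or limma. An unadjusted p under 0.05 with edgeR was found for 2 (Gnai1 and Slc22a8), where 1.82% of all genes had one. Of the 36, 16 had a log2 fold change above 0 and 20 below, with a median of -0.0074 against 0.0010 for all genes. Without overlap between groups there were 1 lower gene (Gnai1) and 2 higher ones (Lpcat3 and Gnb2, a G protein β subunit gene), where 3.02% and 2.96% of all genes were so.

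Of 8 other prostanoid receptors only Ptger1, the EP1 receptor gene, is listed. Ptger1 stood at 58.0, 49.5 and 53.0 CPM in transgenic kidneys 1, 2 and 3, against 56.9, 58.2 and 40.0 CPM in control kidneys 1, 2 and 3. Control 3 was the low kidney, and the log2 fold change was 0.051 ± 0.15 (SE), with -0.10 when control 3 was left out. The level of Ptger1 is uncertain, since counting without strand may not separate it from overlapping annotation.

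Of 15 further prostanoid enzymes and carriers 7 are listed, 3 above and 4 below 0, with a median log2 fold change of -0.024. Slc22a8, which encodes the organic anion transporter OAT3 of the proximal tubule, a carrier of prostaglandin E2 among many anions, stood at 491, 407 and 469 CPM in transgenic kidneys 1, 2 and 3, against 391, 411 and 343 CPM in control kidneys 1, 2 and 3. The groups overlapped by a small margin, since transgenic kidney 2 lay just under control 2. The log2 fold change of Slc22a8 was 0.26 ± 0.10 (SE). Akr1b3, the aldose reductase gene, whose product can also make prostaglandin F2α, stood at 304, 297 and 351 CPM in transgenic kidneys 1, 2 and 3, against 339, 355 and 422 CPM in control kidneys 1, 2 and 3, with the groups overlapping. The log2 fold change of Akr1b3 was -0.23 ± 0.11 (SE), and -0.13 without control 3.

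Of 16 genes that free arachidonic acid or put it back into membranes 6 are listed, 4 above and 2 below 0, with a median of 0.049. Lpcat3, which encodes an acyltransferase that loads arachidonate into phospholipids, was higher without overlap, at 136, 119 and 125 CPM in transgenic kidneys 1, 2 and 3, against 109, 118 and 104 CPM in control kidneys 1, 2 and 3. The margin was narrow, with transgenic kidney 2 just above control 2, and the log2 fold change was 0.20 ± 0.091 (SE). Of 16 genes of the leukotriene, epoxide and hydroxylase branches 9 are listed, 3 above and 6 below 0, with a median of -0.011. The gene with the smallest unadjusted p among them was Ephx1, the microsomal epoxide hydrolase gene, with a log2 fold change of -0.12 ± 0.089 (SE) and overlapping groups.

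Of 29 genes of G proteins and cAMP signalling 13 are listed, 5 above and 8 below 0, with a median of -0.068. Gnai1, which encodes an inhibitory G protein α subunit of the kind EP3 couples to, was lower without overlap. It stood at 52.1, 56.2 and 54.1 CPM in transgenic kidneys 1, 2 and 3, against 66.1, 62.7 and 86.3 CPM in control kidneys 1, 2 and 3. Control 3 was far above the other controls, which were themselves above all transgenic kidneys. The log2 fold change of Gnai1 was -0.41 ± 0.13 (SE) with all libraries and -0.25 without control 3, and its adjusted p was 0.997 (edgeR). Gnai3, of the same family, had a log2 fold change of -0.16 ± 0.13 (SE), and -0.029 without control 3. Rhoa, a small GTPase of the cytoskeleton that EP3 can engage, had -0.18 ± 0.11 (SE), and -0.047 without control 3. In both the groups overlapped.

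**Figure D4:**
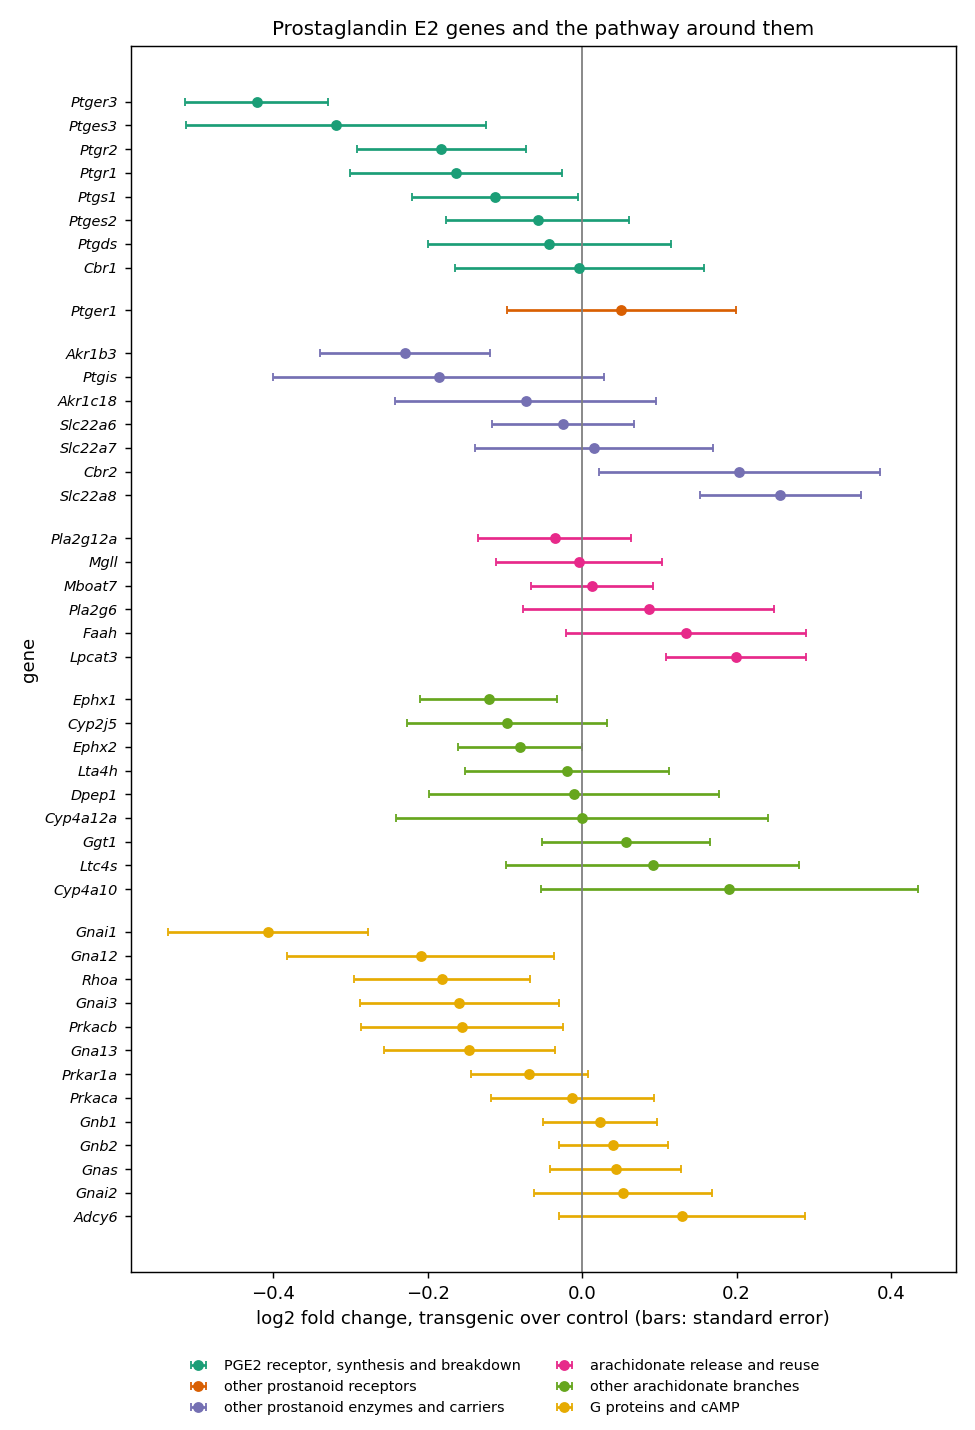
Log2 fold change, transgenic over control (horizontal axis), with its standard error as bars, for the 8 prostaglandin genes and the 36 listed genes of 5 pathway lists, coloured by list. Ptger3 (-0.42) and Gnai1 (-0.41) lie farthest to the left, Slc22a8 (0.26) farthest to the right, and none passed the test over all genes.

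The genes most like Ptger3 across the 6 libraries, by the Pearson correlation of log2 CPM, were Ppp6c (r = 0.97), Btbd1 (0.97), Snhg3 (0.96), Arhgdib (0.96) and Rab2a (0.95), out of 37 genes with r above 0.9. Ppp6c, a protein phosphatase subunit gene, stood at 31.6, 31.5 and 33.0 CPM in transgenic kidneys 1, 2 and 3, against 34.9, 36.2 and 38.0 CPM in control kidneys 1, 2 and 3. In all 5 the transgenic values lay below the control values, where 3.02% of all genes did, but likeness to Ptger3, whose groups are separate, nearly fixes this, and nothing is read from it. Their log2 fold changes ran from -0.32 for Snhg3 to -0.093 for Rab2a. None of the 5 passed the test.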

How the data were processed

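Per the labels, kidney RNA was purified with a column kit and sequenced on an Illumina instrument. Per the submitters' processing notes reads were placed on mm10. No aligner, counter or strand setting is given in the sources used here. Per the file headers, the authors kept genes with an NRPKM value of 5.0 to 84233.281 in at least 2 of 6 samples. The 8 prostaglandin genes met this in all 6 samples, so none was listed through 1 group only. The deposited raw columns hold estimated counts, with fractions, which were rounded. The deposited normalized columns hold log2 values scaled by the authors and were used for 1 alternative. The table has 24 columns of per-sample values, and 12 of them, which match none of these samples, were not used.

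Of the 7373 rows, 7354 were matched by Entrez ID to the RefSeq table of GRCm38.p6. With the 178 genes of X and Y left out, edgeR (4.0.16, R 4.3.3) was run with filterByExpr (1 gene removed), TMM and the quasi-likelihood test over 7194 genes, with group as the only term, Benjamini-Hochberg adjustment and a threshold of 0.05, two-sided. Each SE is the size of the log2 fold change over the root of F. Levels are CPM with TMM library sizes; correlations used log2 CPM with a prior count of 2. The procedure was tested on simulated counts. Alternatives used DESeq2 (1.42.0) and limma (3.58.1). Genes, lists, alternatives and the naming rule were all chosen with earlier results of these data known. That rule took the genes described first, the 5 genes most like Ptger3, and up to 4 genes per pathway or marker list. Those were taken by the smallest p-value in pathway lists and by level in marker lists. Cryab, Ren1, Aqp4, the remaining calls and the exceptions among the markers are named outside the rule or after their values were seen.

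Whether the replicate numbers in the titles mark pairs is not stated. The correlation of deviations from the group means gave no clear pairing, but with 3 samples per group it cannot settle the question. Some genes and the values that need them are not reported here.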

Additional observations from a re-analysis of the deposited data

How the results depend on the processing

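The count of genes past the threshold was 1 (Ren1; 131 genes had an unadjusted p under 0.05). It was 0 with X and Y genes kept (112 at an unadjusted p under 0.05) and when limma was run on the authors' log2 values (134), 2 with DESeq2 (Ren1 among them), and ran from 0 to 2 when 1 library was left out. Without control 3 both Ren1 and Hba-a2 passed; there were 0 without control 1 or any of the transgenic kidneys. DESeq2 size factors, no filter, limma with voom and the replicate block each gave 1, Ren1. The number of genes with an unadjusted p under 0.05 was 597 without control 2 and 47 without transgenic kidney 1, so the share of all genes at that level rests on single libraries. Why these counts differ was not tested.

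None of the 104 alternative values of the 8 prostaglandin genes passed the threshold, and 95 kept their direction. Without 1 library the log2 fold change ran from -0.47 to -0.37 for Ptger3, from -0.48 to -0.022 for Ptges3, from -0.13 to 0.053 for Ptges2, from -0.13 to 0.18 for Cbr1, from -0.13 to 0.081 for Ptgds, from -0.17 to -0.049 for Ptgs1, from -0.30 to -0.098 for Ptgr1 and from -0.28 to -0.075 for Ptgr2. Cbr1 was also 0.00049 with DESeq2, 0.010 with the replicate block and 0.013 with the authors' log2 values. Among 12 further genes, Ptger1 ran from -0.10 to 0.15, Umod from -0.17 to 0.011, Slc12a1 from -0.059 to 0.039, Egf from -0.14 to -0.015, Akr1b3 from -0.31 to -0.13 and Slc22a8 from 0.19 to 0.33 without 1 library. The cause of the turned signs was not tested.

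Deviations from the group means correlated at 0.0018, -0.019 and 0.33 for samples 1, 2 and 3 with the same number. The samples numbered 3 correlated best with each other, while transgenic 1 did so with control 2 (0.13) and transgenic 2 with control 1 (0.43). With 3 samples per group these values cannot settle whether the numbers mark pairs. With the replicate block in edgeR, 176 genes had an unadjusted p under 0.05, against 131 without it. Ptger3 then had a log2 fold change of -0.42 and an adjusted p of 0.999. Each library held at least 958 estimated counts of Ptger3 and 225 of Ptgds.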
